A study of Mus musculus with 93 samples.

Results

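Of the 39 single-cell libraries labelled Tbx4 lineage-, 10 were set apart as myeloid-like because they held RNA of both Laptm5 and Tyrobp, 2 genes used by blood-derived cells. They were chosen with the measured values. A well had to hold at least 1000 genes at 1 FPKM, which 34 of the 39 did, and both genes had to reach 1 FPKM. Well 11, with 628 genes, held both and was not kept. The other side, 18 wells, had both genes below 1 FPKM. The remaining 6 of the 34 wells had only 1 of the pair and were left out of both sides. The whole series holds 93 libraries. Because the choice of wells used the expression values of the same wells, every difference between the sides is given as a description with no test, and the difference in Laptm5 and Tyrobp is not a result.

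Lung tissue holds several kinds of myeloid cell. Alveolar macrophages live in the airspace, take up surfactant and debris, and are known for Chi3l3 (a chitinase-like protein), the ribonuclease Ear2, lipid-handling genes and the receptor CD206 encoded by Mrc1. Dendritic cells take up antigen and show it to T cells on MHC class II molecules. Laptm5 encodes a lysosomal membrane protein of blood cells, and Tyrobp encodes DAP12, an adaptor whose ITAM motif passes on signals of activating receptors in myeloid and natural killer cells.

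The cells came from lungs of adult C57BL/6 mice carrying Tbx4cre and RosaTm. Tbx4 encodes a transcription factor of the embryonic lung mesenchyme. Cre made where Tbx4 is active turns on a reporter that all daughter cells keep, and lineage- cells are those without it. All animals of both groups carried the same alleles, and no treatment is named. Per the labels' protocols the sort gate was epcam+ CD31- CD45- 7AAD-, while the series' design text calls the sorted cells mesenchymal. CD45, the surface protein that marks blood cells, is encoded by Ptprc, whose row held no values, so the gate could not be checked on it. Cells were caught on a Fluidigm C1 chip, the capture sites were looked at by eye so that empty ones, doublets and debris could be removed, and a SMARTer kit for cDNA and Nextera XT for libraries followed. The names of the lineage+ wells have another prefix and repeat 29 capture sites of the lineage- wells, so the groups were caught in separate chip runs, and group and run cannot be told apart. The lineage+ prefix may hold an age, which the names do not spell out. A difference in age between the groups could not be told apart from group either. No label names an animal or a pool, so all 39 lineage- wells count as 1 sample, and values from wells show the spread among wells and not among mice.

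Values are FPKM, fragments per kilobase of gene, scaled for sequencing depth, as deposited, and a gene was called detected in a well at 1 FPKM. The myeloid-like wells held 1438 to 2707 detected genes (median 1872) and the other wells 1031 to 2737 (median 1773.5). The approximate depth had a median of 5045000 reads in the myeloid-like wells (1120000 to 8910000) and 8910000 in the other wells (282000 to 11200000). On the chip, 9 of 10 myeloid-like wells and 10 of 18 other wells lay in rows E to H. No doublet caller was run. The highest correlation among the 741 pairs of lineage- wells was r = 0.517, so no library appeared to be deposited more than once. Genes that every cell uses were listed at 0 in some of the 34 wells (Rplp0 in 4, Ppia in 3, Gapdh in 2, Actb in 0), so a value of 0 may be a missed transcript and is written as listed at 0.

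Laptm5 stood at 189 FPKM in well 3, 40.5 in well 5, 342 in well 6, 1638 in well 9, 681 in well 10, 46.2 in well 12, 349 in well 14, 70.9 in well 18, 230.0 in well 19 and 161 in well 30. Tyrobp stood at 546 FPKM in well 3, 92.2 in well 5, 1098 in well 6, 4773 in well 9, 1049 in well 10, 3288 in well 12, 1235 in well 14, 4496 in well 18, 2.16 in well 19 and 661 in well 30. Both genes ranged widely, and the wells with the most of one were not the wells with the most of the other, except well 9, which was highest for both. In the other wells Laptm5 reached at most 0.0538 FPKM and Tyrobp at most 0.909. Just inside the rule lay well 19, with Tyrobp at 2.16 FPKM, and just outside lay wells 8 and 29 at 0.909 and 0.629. Of the 6 wells with 1 gene, well 27 held Tyrobp at 6.94 FPKM and wells 34 and 17 held Laptm5 at 5.07 and 4.84.

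**Figure D1:**
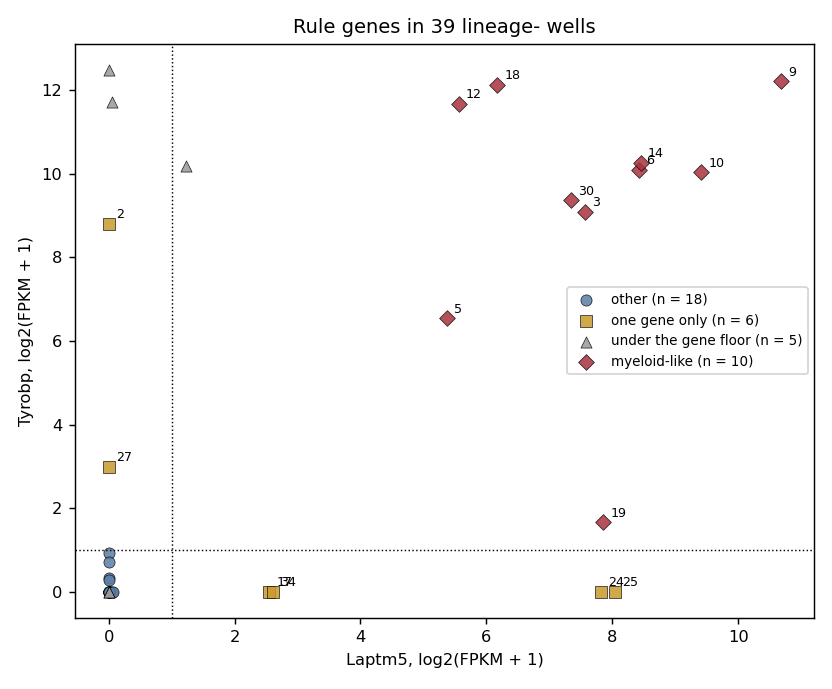
Laptm5 against Tyrobp in the 39 lineage- wells, both axes as log2(FPKM + 1), with 1 point per well, colour and shape for the side, dotted lines at 1 FPKM and the well number beside the myeloid-like wells and those with 1 gene only. The 10 myeloid-like wells lie right of and above both lines, with well 19 nearest to the Tyrobp line at 2.16 FPKM.

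Of the 21285 genes, 11 were detected in all 10 myeloid-like wells and in none of the 18 other wells. They were Laptm5 and Tyrobp, which the rule used, and Ctss, Fcer1g, Cd53, Clec7a, Mpeg1, Mrc1, Plek, Tnf and 1810033B17Rik (Mcemp1 in RefSeq). The sides were set by 2 of these genes and the other 9 were picked by this pattern, so their counts are a description. No gene was detected in every other well and no myeloid-like well. In the 50 distinct lineage+ wells kept, which the rule did not use and which came from another chip run, Laptm5, Ctss, Cd53, Mpeg1, Mrc1, Plek, Tnf and 1810033B17Rik were detected in 0 wells, and Tyrobp, Fcer1g and Clec7a in 1 each.

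Promoters of 4 of these genes are shown because the genes were detected together and their windows hold copies of the PU box, the core letters bound by PU.1, a transcription factor of myeloid cells. Each run is the RefSeq window of 300 bases on GRCm38.p6, 250 before and 50 after the gene's start, written 5′ to 3′ on the gene's strand. Capitals mark GAGGAA or, where the box lies on the opposite strand, TTCCTC. Laptm5 lies on the + strand at chr4:130913066-130913365, Ctss (cathepsin S) on the + strand at chr3:95526536-95526835, Cd53 (a tetraspanin of leukocytes) on the - strand at chr3:106790100-106790399 and Mrc1 on the + strand at chr2:14229164-14229463.
Laptm5: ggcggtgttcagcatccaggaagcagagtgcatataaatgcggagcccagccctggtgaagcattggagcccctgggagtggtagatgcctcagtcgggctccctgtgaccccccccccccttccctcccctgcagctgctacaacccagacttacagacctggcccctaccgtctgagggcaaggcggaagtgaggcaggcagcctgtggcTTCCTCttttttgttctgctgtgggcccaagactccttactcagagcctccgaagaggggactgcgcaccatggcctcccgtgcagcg
Ctss: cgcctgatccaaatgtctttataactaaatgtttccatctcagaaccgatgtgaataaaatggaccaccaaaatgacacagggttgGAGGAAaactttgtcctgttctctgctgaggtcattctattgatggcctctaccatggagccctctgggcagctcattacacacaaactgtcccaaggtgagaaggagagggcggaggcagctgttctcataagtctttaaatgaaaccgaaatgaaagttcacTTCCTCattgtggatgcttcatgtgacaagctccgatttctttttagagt
Cd53: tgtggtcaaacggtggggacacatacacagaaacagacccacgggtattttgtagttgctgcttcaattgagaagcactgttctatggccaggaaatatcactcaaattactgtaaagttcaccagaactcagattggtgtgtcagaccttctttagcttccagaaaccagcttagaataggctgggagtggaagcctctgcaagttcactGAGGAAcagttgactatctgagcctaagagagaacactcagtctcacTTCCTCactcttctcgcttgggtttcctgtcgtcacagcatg
Mrc1: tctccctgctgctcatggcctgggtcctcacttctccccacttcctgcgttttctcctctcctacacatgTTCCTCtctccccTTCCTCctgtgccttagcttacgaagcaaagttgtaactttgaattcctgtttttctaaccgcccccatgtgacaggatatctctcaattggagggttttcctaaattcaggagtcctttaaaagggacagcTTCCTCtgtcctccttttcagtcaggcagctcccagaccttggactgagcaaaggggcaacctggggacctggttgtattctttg
The box occurred 1 time in Laptm5, on both strands in Ctss and Cd53, and 3 times, all on the opposite strand, in Mrc1. Of 13 genes looked up (the 11 above with Ear2 and Chi3l3), 12 had an entry and 7 of those held GAGGAA on either strand, against 28.3% of the 27025 promoters in the table. The longer form GAGGAAGT, which contains the short one, was in 2 of the 12 (Ctss and Cd53) and in 3.28% of all promoters. The 13 genes were given with the rule or picked by their values in these wells, so these shares are a description, and enrichment was not tested. A match describes the letters only and is no evidence of binding. Whether PU.1 acts on these genes was not tested. The gene of PU.1 itself, Sfpi1 in these files and named after its values were seen, was detected in 7 of 10 myeloid-like wells, at 1.92 FPKM in well 3, 1.06 in well 5, 1.48 in well 6, 9.23 in well 9, 0 in well 10, 0 in well 12, 0 in well 14, 11 in well 18, 137 in well 19 and 4.31 in well 30. It was listed at 0 in all 18 other wells.

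Among 1569 genes detected in at least 50% of the wells of either side, 527 (33.6%) had a mean at least 2-fold higher in the myeloid-like wells and 303 (19.3%) a mean at least 2-fold lower, with a median log2 ratio of 0.35 over all 1569. Ratios compare mean FPKM with 1 FPKM added to both sides. Where the lower side is near 0, the added 1 FPKM sets the size of the ratio. Among the 8698 genes detected in at least 10% of the wells of either side, which is the background for the gene lists below, 30.0% were higher, 34.0% lower and the median log2 ratio was 0.05. A gene could pass the 10% filter through a single side, which then largely set its direction, so the list counts are descriptions. The list medians below rest on means over wells, and when medians over wells were compared 13 of 27 became 0. The myeloid-like wells shared more genes among themselves: 192 genes were detected in every myeloid-like well and 30 in every other well, with fewer wells on the first side.

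**Figure D2:**
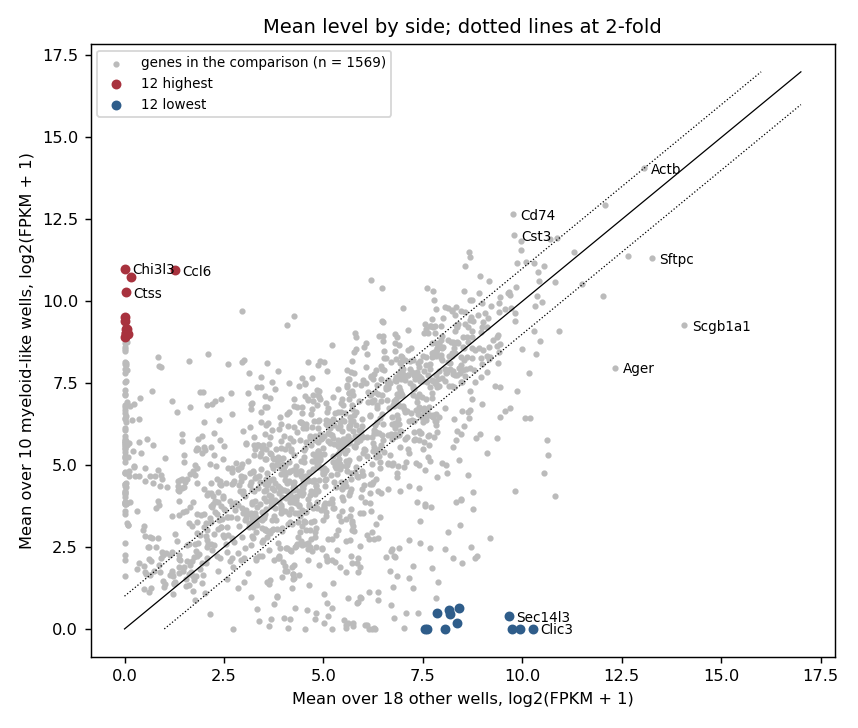
Mean level of each of 1569 genes over the 18 other wells (x axis) and the 10 myeloid-like wells (y axis), both as log2(FPKM + 1). Each point is a gene, red and blue points are the 12 highest and 12 lowest ratios, the solid line marks equal means and dotted lines a 2-fold difference. The red points lie along the left edge, near 0 in the other wells, apart from Ccl6 at a mean of 1.40 FPKM, and the blue points lie along the lower edge.

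The 12 highest log2 ratios belonged to Chi3l3, Tyrobp, Ctss, Ccl6, Ear2, 1810033B17Rik, Cxcl2, Plek, Clec7a, Il1b, Srgn and Fcer1g. Ctss, a cathepsin of antigen-presenting cells, stood at 975 FPKM in well 3, 179 in well 5, 329 in well 6, 479 in well 9, 1046 in well 10, 11.4 in well 12, 2213 in well 14, 1448 in well 18, 5160.5 in well 19 and 556 in well 30. Every myeloid-like well held it and no other well exceeded 0.139 FPKM, for a log2 ratio of 10.25. Plek (pleckstrin, a signalling protein of blood cells) had the lowest 31.3, median 663 and highest 1129.7 FPKM in the myeloid-like wells and at most 0.251 in the others, a log2 ratio of 9.07. Clec7a, the receptor dectin-1 for fungal glucans, had the lowest 60.1, median 375 and highest 1535 FPKM, against at most 0.145 FPKM, a log2 ratio of 8.99. The membrane protein gene 1810033B17Rik had the lowest 28.1, median 104 and highest 3913 FPKM and a log2 ratio of 9.39. These 4 genes are among those picked above for detection in all myeloid-like wells and no other well, so their sides could not overlap. Srgn, the proteoglycan of immune cell granules, was listed at 0 in well 18 and stood at 3.21 FPKM in well 19, while the other 8 myeloid-like wells held 4.05 to 1519.9 FPKM. Its log2 ratio was 8.91.

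**Figure D3:**
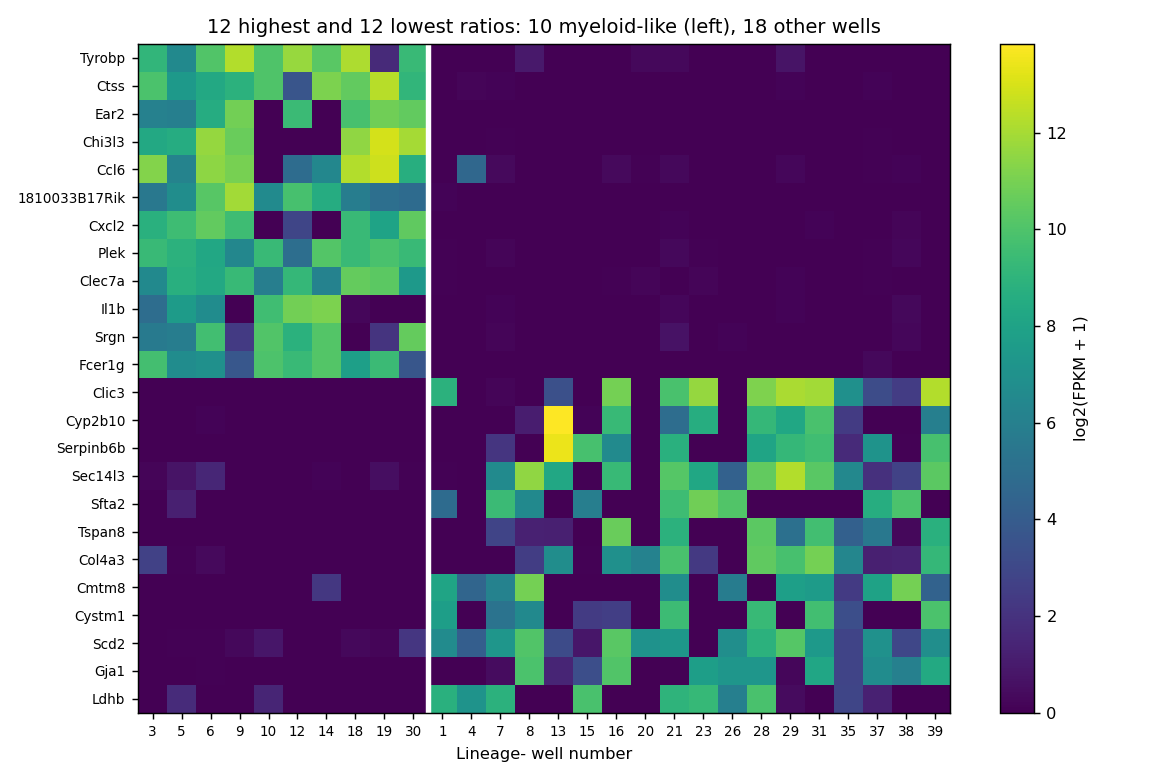
Levels of the 12 genes with the highest and the 12 with the lowest ratios (rows) in the 10 myeloid-like wells, left of the white line, and the 18 other wells, right of it, as log2(FPKM + 1) by colour. The upper block is filled on the left, with gaps for Chi3l3, Ear2, Ccl6, Cxcl2, Il1b and Srgn in some wells, and the lower block is filled on the right, with many gaps.

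The pan-leukocyte list, genes of blood cells of all kinds, had 23 of the 24 measured genes detected in at least 10% of the wells of either side, of which 23 were higher and 0 lower, with a median log2 ratio of 5.38. The rule genes Laptm5 and Tyrobp belong to this list, and their direction was fixed by the rule. Without them, 21 of 21 were higher, with a median log2 ratio of 5.34. No other well held more than 3 of the 24 genes. Members could thus enter the count through the myeloid-like side alone, which left their direction little room to differ. Cd53 stood at 31.2 FPKM in well 3, 2.76 in well 5, 159.5 in well 6, 11.3 in well 9, 392 in well 10, 274 in well 12, 259.9 in well 14, 113 in well 18, 56.9 in well 19 and 598 in well 30. Well 5 was lowest and well 30 highest, and no other well exceeded 0.145 FPKM, a log2 ratio of 7.54. Coro1a, an actin regulator of leukocytes, was detected in 5 of 10 wells, with 457 FPKM in well 14 as the highest. Itgb2, the integrin beta 2 chain, was detected in 8 of 10 and Alox5ap, which leukotriene synthesis needs, in 9 of 10. Cd52 was uneven, with 0 FPKM in well 3, 1.33 in well 5, 0 in well 6, 1599.7 in well 9, 542 in well 10, 3113 in well 12, 1904 in well 14, 0.615 in well 18, 112 in well 19 and 1009 in well 30. Lst1 was listed at 0 in every well of both sides, and Ptprc, Lcp1, Ptpn6, Lsp1 and Gmfg had no values.

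For signalling through ITAM adaptors, 13 of the 13 measured genes were detected in at least 10% of the wells of either side, 12 higher and 1 lower, with a median log2 ratio of 3.50. The rule gene Tyrobp is on this list, and without it 11 of 12 were higher, 1 was lower and the median log2 ratio was 3.43. When medians over wells were compared, that of the whole list was 0.12. Members of this list, too, could enter the count through the myeloid-like side alone. Fcer1g, the Fc receptor gamma chain that carries an ITAM, stood at 819 FPKM in well 3, 107 in well 5, 120.1 in well 6, 12.3 in well 9, 1020.4 in well 10, 654 in well 12, 1107 in well 14, 219.8 in well 18, 696 in well 19 and 12.1 in well 30. Wells 9 and 30 were lowest, and no other well exceeded 0.209 FPKM, for a log2 ratio of 8.88. The kinase Lyn was detected in 5 of 10 wells and led by well 3 at 154 FPKM, with 3 of 18 other wells also positive.

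Receptors of phagocytes were detected in uneven combinations. Of their list, 21 of the 23 measured genes were detected in at least 10% of the wells of either side, 20 higher and 0 lower, with a median log2 ratio of 4.36, which was 0 when medians over wells were compared. Mrc1, the mannose receptor, stood at 2.41 FPKM in well 3, 12.3 in well 5, 42.3 in well 6, 1.46 in well 9, 10.4 in well 10, 155 in well 12, 2.73 in well 14, 29 in well 18, 151 in well 19 and 71.8 in well 30. All 10 wells held it, wells 12 and 19 the most, and its log2 ratio was 5.61 against a highest other well of 0.0175 FPKM. Fcgr3, a low-affinity Fc receptor, was detected in 9 of 10 wells, with 413 FPKM in well 18 as the highest. Cd68, a lysosomal protein used as a macrophage marker, was detected in wells 3, 5, 10, 12, 18 and 30, with 1020.4 FPKM in well 12, and listed at 0 in wells 6, 9, 14 and 19. The inhibitory Fc receptor Fcgr2b was detected in wells 10, 12, 14 and 19 (721, 299.7, 501 and 625.3 FPKM) and listed at 0 in the other 6. Cd14, a co-receptor for bacterial lipopolysaccharide, was highest in well 9 at 959 FPKM and was detected in 1 other well at 398. Emr1, which encodes F4/80, reached at most 9.45 FPKM, Msr1 27.6 and Marco 0.883. Trem2 stood at 955 FPKM in well 18 and under 1 FPKM in the other 9.

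The NADPH oxidase, the enzyme that makes superoxide in phagosomes, was among the fuller sets: 6 of its 6 genes were higher, with a median log2 ratio of 3.97. Its catalytic chain Cybb stood at 63.6 FPKM in well 3, 201 in well 5, 273 in well 6, 54.4 in well 9, 94.9 in well 10, 0.181 in well 12, 305 in well 14, 37.4 in well 18, 1432 in well 19 and 228 in well 30. Only well 12 had it under 1 FPKM, no other well exceeded 0.052 FPKM, and the log2 ratio was 8.07. The partner chain Cyba was detected in all 10 wells (lowest 7.39, median 286 and highest 1575 FPKM) and in 10 of 18 other wells up to 383 FPKM, so the sides overlapped, with a log2 ratio of 2.60. Ncf1, a cytosolic subunit, was listed at 0 in wells 12 and 14.

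Lysosomal enzymes were less one-sided. Of their list, 25 of the 25 measured genes entered, 13 higher and 4 lower, with a median log2 ratio of 1.19 that turned to -0.72 in wells with at least 2000 genes. Ctsd (cathepsin D) stood at 55.3 FPKM in well 3, 218 in well 5, 1133 in well 6, 1851 in well 9, 729 in well 10, 0 in well 12, 296 in well 14, 608 in well 18, 757 in well 19 and 547 in well 30. Well 12 listed it at 0, the other 9 exceeded 50 FPKM, and 7 of 18 other wells held it up to 118 FPKM, for a log2 ratio of 5.20. Cst3 (cystatin C, a cathepsin inhibitor) stood at 0 FPKM in well 3, 822 in well 5, 18.5 in well 6, 11 in well 9, 9129.9 in well 10, 11155 in well 12, 18042 in well 14, 1766 in well 18, 137 in well 19 and 114 in well 30. The wells with the most were 10, 12 and 14. Other wells held 0 to 8790.3 FPKM, and the log2 ratio of 2.22 rests on those 3 wells, with the sides overlapping. Npc2, a lysosomal cholesterol carrier, had a higher median in the other wells (73.4 FPKM) than in the myeloid-like wells (26.5). Ctsk (cathepsin K) was detected in 5 wells and stood at 3188 FPKM in well 19.

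Cytokine and chemokine transcripts were abundant. Of their list, 18 of the 22 measured genes entered, 14 higher and 1 lower, with a median log2 ratio of 6.25. Their summed FPKM was 2298 to 10805 in the myeloid-like wells. In the other wells the sum had a median of 0.605 and reached 6443 in well 15, so the sums overlapped. The median log2 ratio of the list was 0.14 when medians over wells were compared and 3.41 without well 14. Tnf, the tumour necrosis factor gene, stood at 184 FPKM in well 3, 173 in well 5, 298 in well 6, 948 in well 9, 34.6 in well 10, 65.7 in well 12, 6.78 in well 14, 145 in well 18, 761 in well 19 and 1637 in well 30. It was in all 10 wells and in no other well above 0.213 FPKM, for a log2 ratio of 8.72. Ccl6, a chemokine of mouse macrophages, stood at 2475 FPKM in well 3, 71.8 in well 5, 2896 in well 6, 2034 in well 9, 0 in well 10, 29.2 in well 12, 82.6 in well 14, 4757 in well 18, 6964 in well 19 and 403 in well 30. Well 10 listed it at 0 and wells 12 and 14 were low, while 1 other well held 24 FPKM, and the log2 ratio was 9.68. Il1b stood at 29.4 FPKM in well 3, 188 in well 5, 104 in well 6, 0 in well 9, 768 in well 10, 1912 in well 12, 2219.7 in well 14, 0.165 in well 18, 0 in well 19 and 0 in well 30. Its highest wells were 10, 12 and 14, and its log2 ratio was 8.98. Cxcl2, a neutrophil attractant, was listed at 0 or low in those 3 wells, with 441 FPKM in well 3, 732 in well 5, 1444 in well 6, 744 in well 9, 0 in well 10, 6.54 in well 12, 0 in well 14, 651 in well 18, 262 in well 19 and 1417 in well 30. Its log2 ratio was 9.13. Il1a was highest in well 30 at 2249.6 FPKM, Ccl3 in well 3 at 951 and Ccl4 in well 10 at 6823. Cxcl1 was shared: it reached 1902 FPKM in the myeloid-like wells and 6244 in the others. Ccl12, Ccl17 and Ccl24 were listed at 0 in all 10 wells.

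Of receptors for cytokines and chemokines, 18 of the 20 measured genes entered, 8 higher and 4 lower, with a median log2 ratio of 0.82. Csf2rb, the beta chain of the GM-CSF receptor that alveolar macrophages need, stood at 37.8 FPKM in well 3, 5.25 in well 5, 1.9 in well 6, 25 in well 9, 0 in well 10, 1.81 in well 12, 379 in well 14, 298 in well 18, 0.517 in well 19 and 109 in well 30. It was detected in 8 of 10 wells and in no other well above 0.0984 FPKM. Csf1r, the receptor for the macrophage growth factor CSF1, was detected in 0 of 10 myeloid-like wells (highest 0.672 FPKM), which as 3 counts of 10 allows a share of wells of up to 30.0%, for counting error only, and in 5 of 18 other wells, up to 949. Ccr2, a receptor of monocytes, was detected in wells 12 and 30, at 108 and 214 FPKM.

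For myeloid transcription factors, 12 of the 13 measured genes entered, 8 higher and 2 lower, with a median log2 ratio of 2.50. Cebpb, a factor of inflammatory genes, was detected in 9 of 10 wells with 554 FPKM in well 19, and in 6 of 18 other wells up to 14.1. Bhlhe40 was highest in wells 18 and 19 at 445 and 524 FPKM, and Bhlhe41, its relative, was highest in well 3 at 336. Both take part in alveolar macrophage renewal in mice. Klf4 overlapped between the sides, with 409 FPKM in well 5 and 383 in the highest other well. Pparg, the lipid-sensing factor of alveolar macrophages, had no values.

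The alveolar macrophage list split the myeloid-like wells. Of its 23 measured genes, wells 3, 5, 6, 9, 18, 19 and 30 held 18, 17, 19, 16, 18, 18 and 17, and wells 10, 12 and 14 held 4, 8 and 4. Against the other wells, 20 of 22 were higher and 1 lower, with a median log2 ratio of 5.50. Chi3l3, also called Ym1, stood at 319.8 FPKM in well 3, 372 in well 5, 3151 in well 6, 1639 in well 9, 0 in well 10, 0 in well 12, 0 in well 14, 2939.6 in well 18, 7868 in well 19 and 4029 in well 30. It was listed at 0 in wells 10, 12 and 14, no well of the other side exceeded 0.0713 FPKM, and its log2 ratio was 10.98. Ear2 stood at 66.7 FPKM in well 3, 61 in well 5, 373 in well 6, 1917 in well 9, 0 in well 10, 693 in well 12, 0 in well 14, 889 in well 18, 1847 in well 19 and 1479 in well 30. Unlike Chi3l3 it was present in well 12. It was listed at 0 in every other well, so no ratio is given. Car4, carbonic anhydrase 4, was detected in wells 3, 5, 9, 18 and 19, at 30.1, 549.8, 484, 1043 and 639 FPKM. The file row 1600029D21Rik (Plet1 in RefSeq, an epithelial and alveolar macrophage surface gene in mice) was detected in the 7 wells with Chi3l3, at 5.93 to 475 FPKM. Itgax, which encodes CD11c of alveolar macrophages and dendritic cells, was detected in 7 wells and was highest in well 14 at 447 FPKM. The row Siglec5 reached 18.2 FPKM in well 19.

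Among lipid genes, Fabp1, a fatty acid carrier, was detected in the 7 wells with Chi3l3 and listed at 0 in wells 10, 12 and 14, with 1137 FPKM in well 3 as the highest. Lpl, lipoprotein lipase, was detected in 9 of 10 wells, up to 332 FPKM. Abcg1, which exports cholesterol, was detected in 8 of 10 wells up to 506 FPKM and in no other well above 0.021. Plin2, the lipid droplet coat protein, reached 1115 FPKM in well 19. Apoe stood at 2774 FPKM in well 10 and 690.1 in well 5, the wells with fibroblast genes described below. Over the whole lipid list, 8 of 15 were higher and 5 lower, with a median log2 ratio of 2.01. Among the lower were the desaturases Scd1 and Scd2. Scd2 reached 3.49 FPKM in the myeloid-like wells and was detected in 16 of 18 other wells up to 1239.8, a log2 ratio of -7.56.

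MHC class II genes were high in wells 10, 12 and 14, those without Chi3l3. The summed FPKM of the 10 measured genes was 33083 in well 10, 22633 in well 12 and 74516 in well 14, and at most 20.1 in the other 7. Cd74, the invariant chain that loads class II molecules, stood at 0.236 FPKM in well 3, 1.96 in well 5, 0 in well 6, 0.365 in well 9, 15255 in well 10, 10509 in well 12, 38871 in well 14, 0.544 in well 18, 3.85 in well 19 and 0.743 in well 30. H2-Aa, a class II alpha chain, stood at 0 FPKM in well 3, 0.461 in well 5, 0 in well 6, 0 in well 9, 10399 in well 10, 7517 in well 12, 21357 in well 14, 0 in well 18, 0.908 in well 19 and 0 in well 30. These genes were not missing from the other side, where Cd74 was detected in 9 of 18 wells up to 4432 FPKM and H2-Aa in 8 up to 1869. The log2 ratios of 2.90 for Cd74 and 3.16 for H2-Aa came from those 3 wells and turned negative when medians or mean log values were compared in place of means (-2.39 and -0.15 for Cd74, -0.31 and -0.09 for H2-Aa). Of the list, 8 of 9 were higher and 0 lower, with a median log2 ratio of 3.65.

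In the same 3 wells, Cd209a, a C-type lectin of dendritic cells, stood at 1367, 649 and 3292 FPKM, and the other 7 listed it at 0. Mgl2, a lectin of dendritic cells and macrophages in mice, stood at 2138, 833 and 1890.4 FPKM there and under 0.1 in the other 7. Of 925 genes detected in exactly 3 myeloid-like wells, 24 were detected in exactly these 3, among them H2-Eb1, H2-DMb2, Ly86, Cxcl16, Ccl9 and Clec10a. Of 191 genes detected in exactly 7 wells, 9 were detected in exactly the wells with Chi3l3: Chi3l3, Fabp1, Tnfaip2, 1600029D21Rik, Tmem234, Tlr2, Cd84, Sfpi1 and Atp6v0d2. These genes were picked by their pattern and are listed as a description. With all genes of the lists left out, the most similar well was 14 for wells 10 and 12, and 12 for well 14, at r = 0.335, 0.357 and 0.357 across 7096 genes. The next most similar was well 5 for well 10 (r = 0.304), well 9 for well 12 (0.337) and well 10 for well 14 (0.335). Wells 9 and 19, both with Chi3l3, also had r = 0.357, so these correlations set the 3 wells apart only slightly. Of the dendritic cell list, Ccl22 was detected in wells 10 and 14 (68.9 and 1532 FPKM) and Flt3, a receptor of dendritic cell precursors, in well 14 (53.4 FPKM), while Clec9a, Ccr7, Siglech and Fscn1 were listed at 0 in all 10. The study's labels name no dendritic cell, and the 3 wells are given no name here.

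**Figure D4:**
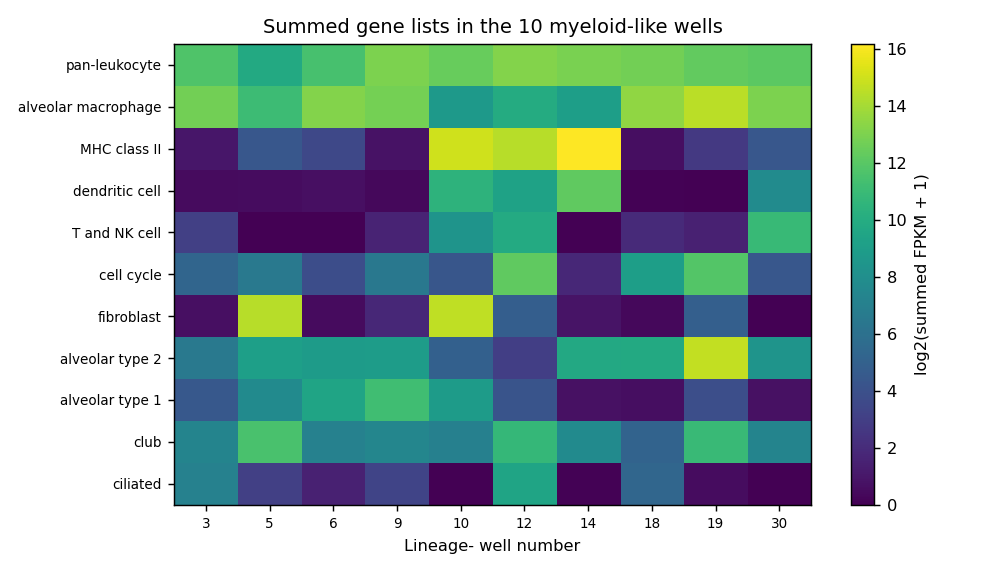
Summed FPKM of 11 gene lists (rows) in each of the 10 myeloid-like wells (columns), as log2(summed FPKM + 1) by colour. Wells 10, 12 and 14 are high for MHC class II and lowest for alveolar macrophage genes, wells 5 and 10 are high for fibroblast genes, well 30 for T and NK cell genes and well 19 for alveolar type 2 genes.

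Genes of interstitial macrophages and monocytes were at 0 or low, apart from Mgl2 in wells 10, 12 and 14 and Ccr2 in wells 12 and 30, as given above. Of 16 measured, 8 were listed at 0 in all 10 wells, among them C1qa, C1qb and C1qc of the complement C1q complex, Pf4, Lyve1, Folr2 and Ly6c2. Of the 6 detected in at least 10% of the wells of either side, 2 were higher and 3 lower, with a median log2 ratio of -1.53. The summed list was 2142 FPKM in well 10, 944 in well 12, 1891 in well 14, 214 in well 30 and at most 2.69 in the other 6. Of 13 measured neutrophil genes, Retnlg, Mmp8, Mmp9, Lcn2, Ngp and Camp were listed at 0 in all 10 wells. Every well held at least 1 of the others. Cxcr2, a chemokine receptor, was detected in 8 wells up to 9.02 FPKM, Trem1, a receptor of myeloid cells, in wells 5, 19 and 30 up to 74.7 and Csf3r, the G-CSF receptor, in 2 up to 3.53, and the summed list was at most 428 FPKM, from G0s2 at 428 FPKM in well 10, a gene that is not particular to neutrophils. Cxcr2 was not particular to these wells either: it was detected in 30 of the 50 lineage+ wells, up to 9.14 FPKM. All 7 measured genes of mast cells, basophils and eosinophils and all 4 of red cells were listed at 0 in all 10 wells. Of the B cell list, Cd79a, Cd79b, Ms4a1 and Pax5 were listed at 0, and the summed list reached 11.5 FPKM, in well 30. Endothelial genes summed to at most 38 FPKM, and Pecam1, the gene of the CD31 of the sort gate, was listed at 0 in all 10.

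Transcripts of T and NK cells were concentrated in well 30, which also held Chi3l3. There Cd3g, Cd3d and Cd3e, chains of the T cell receptor complex, stood at 717, 399 and 146 FPKM and Cd2, an adhesion receptor, at 251. In the other 9 wells Cd3g and Cd3e stayed under 1 FPKM and Cd3d reached 1.82 in well 19. Cd2 was highest in well 12 at 858 FPKM. Klrd1, a chain of NK cell receptors, stood at 331 FPKM in well 10 and 73.1 in well 12. Cd4, Cd8a, Nkg7, Gzma, Gzmb and Klrb1c were listed at 0 in all 10 wells. The sum of the list was 1894 FPKM in well 30, 931 in well 12, 335 in well 10 and at most 7.43 in the other 7. The part of another cell or of free RNA in these values was not tested.

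Fibroblast genes were present in wells 5 and 10 beside the myeloid genes. Well 5 held 12 and well 10 15 of 17 measured genes, at a sum of 22715 and 25235 FPKM, and the other 8 wells summed to at most 28.6. Mgp, a matrix protein gene abundant in lung fibroblasts, stood at 19124 FPKM in well 5 and 9545 in well 10, and at most 27.4 in the other 8. Inmt, a methyltransferase of lung fibroblasts, stood at 2419 and 12116 FPKM, and Col1a2, a collagen chain, at 41.4 and 223. On the other side fibroblast genes reached a similar sum, 28311 FPKM in the highest well. Whether wells 5 and 10 caught more than 1 cell was not tested.

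Actin and its regulators, on which moving and engulfing cells depend, were detected on both sides. Of the list, 11 of 18 were higher and 0 lower, with a median log2 ratio of 1.09, which was 2.51 when medians over wells were compared. Actb had the lowest 6369, median 12603 and highest 36557 FPKM in the myeloid-like wells and a median of 7804 and highest of 21030.4 FPKM in the others, a log2 ratio of 1.00, and Tmsb4x (thymosin beta 4) had a log2 ratio of 0.86. The sides overlapped for both. MHC class I genes showed little difference in the middle of the list, with a median log2 ratio of 0.16, 1 of 11 higher and 3 lower. That median turned to -0.022 in wells with at least 2000 genes and lay between -0.11 and 0.30 with each well left out in turn. B2m, their light chain, was detected in all 28 wells of both sides, with a log2 ratio of 0.61. Of interferon-inducible genes, 3 of 9 were higher and 5 lower, and Ifit1, Ifit2, Ifit3, Stat2 and Oasl2 were listed at 0 in all 10 myeloid-like wells. Ifitm3 stood at 981 and 1781 FPKM in wells 5 and 10, which also held the fibroblast genes, and at most 4.8 in the other 8. Bst2 was detected in well 6 alone, at 341 FPKM.

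Immediate early genes, which cell isolation can induce, overlapped between the sides, with 6 of 18 higher, 2 lower and a median log2 ratio of 0.68, which turned to -0.27 in wells with at least 2000 genes. That median was 3.02 when medians over wells were compared. Nfkbia, the inhibitor of NF-kappa-B that the pathway itself induces, was detected in all 10 wells, with the lowest 242, median 764 and highest 2228 FPKM. In the others its median was 16.9 and highest 1131, a log2 ratio of 2.79. Zfp36, which speeds the decay of Tnf mRNA, had the lowest 250.1, median 541 and highest 1297 FPKM against a median of 23.5 in the others, a log2 ratio of 1.54. High sums of cell cycle transcripts lay in few wells, while Tyms (thymidylate synthase) was detected in all 10, at 2.43 to 262 FPKM, and in 15 of 18 other wells. Tyms was also detected in all 50 lineage+ wells, at 1.47 to 25.4 FPKM. Of the cell cycle list, 11 of 13 were higher and 0 lower, with a median log2 ratio of 3.36, which was 2.22 without well 12 and turned to -0.40 in wells with at least 2000 genes. The sum was 4812 FPKM in well 12, from Stmn1 at 3759.8, 3675 in well 19, from Pcna at 2773, and 546 in well 18, from Birc5 at 522. Well 12 held 8 and well 19 7 of the 15 genes, and the other 7 wells summed to at most 93.4 FPKM.

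The 12 lowest log2 ratios belonged to Clic3, Cyp2b10, Serpinb6b, Sec14l3, Sfta2, Tspan8, Col4a3, Cmtm8, Cystm1, Scd2, Gja1 and Ldhb. Clic3, an intracellular channel protein counted here with alveolar type 1 genes, was listed at 0 in all 10 myeloid-like wells and detected in 12 of 18 other wells, up to 4798 FPKM. Serpinb6b, Tspan8 and Cystm1 were also listed at 0 in all 10, and were detected in 11, 11 and 10 other wells. Sec14l3, a lipid-binding protein of the airway, was detected in well 6 at 1.75 FPKM and in 14 of 18 other wells up to 4883, a log2 ratio of -9.27. Among the 4 myeloid-like and 5 other wells with at least 2000 genes its log2 ratio was 0.04. Col4a3, a chain of basement membrane collagen, was detected in well 3 at 5.34 FPKM and in 13 of 18 other wells up to 1955, a log2 ratio of -7.77. Gja1 (connexin 43) and Ldhb (a lactate dehydrogenase chain) were detected in 0 and 2 myeloid-like wells and in 12 and 10 other wells. No gene of the 12 was detected in every other well, and Scd2 came nearest.

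Epithelial transcripts were found in every myeloid-like well, mostly at low levels. Of 74 measured genes on the alveolar type 1, alveolar type 2, club, ciliated and general epithelial lists, 41 were detected in at least 1 myeloid-like well, 8 in at least 5 and 2 in all 10, while 61 were detected in at least 1 other well. Their summed FPKM was 0.129% to 4.47% of the well's total (median 0.411%) in the myeloid-like wells and 0.429% to 83.1% (median 7.85%) in the others, so the ranges overlapped. These sums include Lyz1, which macrophages can also make, and Pdpn, which fibroblasts also make. Lyz1 was 329 of 491 FPKM in well 30 and 662 of 1180 in well 14, and Pdpn was 287 of 635 in well 10. The median ratios of the lists were -5.10 for type 1, -4.53 for type 2, -3.64 for club, -4.41 for ciliated and -4.03 for general epithelial genes on the log2 scale. Of the members detected in at least 10% of the wells of either side, 13 of 13, 14 of 15, 9 of 9, 3 of 4 and 15 of 16 were lower, and in the ciliated list 1 was higher. When medians over wells were compared, the list medians were -0.23 for type 2, -0.047 for club and 0 for general epithelial genes, and in wells with at least 2000 genes that of type 1 was -0.75.

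The genes detected in all 10 wells were Scgb1a1 and Lyz1. Scgb1a1, the secretoglobin that club cells release into the airway fluid, stood at 53.6 FPKM in well 3, 2062 in well 5, 106 in well 6, 129 in well 9, 53.5 in well 10, 1759.9 in well 12, 199 in well 14, 21.6 in well 18, 1643 in well 19 and 142 in well 30. Wells 5, 12 and 19 were highest. The other wells had a median of 708 and highest of 196038 FPKM, with 16 of 18 positive, and the log2 ratio was -4.80. The ratio rested mostly on other wells 35 and 13, at 196038 and 100140 FPKM, with well 8 next at 3655. Over all settings it ran from -6.08 to -0.46. In the 50 lineage+ wells Scgb1a1 was detected in 18, up to 356 FPKM. Lyz1, a lysozyme that both alveolar type 2 cells and macrophages can make and whose sequence is close to that of Lyz2, stood at 49.6 FPKM in well 3, 122 in well 5, 449.8 in well 6, 458 in well 9, 26.8 in well 10, 1.39 in well 12, 662 in well 14, 532 in well 18, 422 in well 19 and 329 in well 30. It was detected in 9 of 18 other wells. The labels do not say how reads shared by Lyz1 and Lyz2 were assigned, so the level of Lyz1 is uncertain.

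Cyp2f2, a cytochrome P450 of club cells, was detected in 9 of 10 wells, at 2.09 FPKM in well 3, 659.9 in well 5, 21.2 in well 6, 3.46 in well 9, 16.9 in well 10, 13.9 in well 12, 11.7 in well 14, 13.2 in well 18, 111 in well 19 and 0.603 in well 30. Its log2 ratio of -3.64 rested on 1 other well, the well labelled with debris (well 23, 18467 FPKM), and was 0.74 without it. Detected in 7 of 10 wells, Sftpc, the surfactant protein C gene of type 2 cells, stood at 2.41 FPKM in well 3, 334 in well 5, 29 in well 6, 5.58 in well 9, 1.58 in well 10, 0.274 in well 12, 11.5 in well 14, 0.308 in well 18, 24892 in well 19 and 0.721 in well 30. Well 19 held far more than any other myeloid-like well, together with Sftpd at 221, Il8 (Cxcl15 in RefSeq, a lung epithelial chemokine) at 598 and Sftpb at 33.4 FPKM. Lamp3 and Abca3 of the lamellar body were detected in 0 of 10 wells, and in 8 and 9 of 18 other wells. The log2 ratio of Sftpc was -1.96, and 0.11 when medians were compared. The myeloid-like mean came mostly from well 19, with well 5 next at 334 FPKM. The mean of the other side came mostly from wells 1 and 23, at 128844 and 44386 FPKM. Over all settings the log2 ratio of Sftpc ran from -10.17 to 0.11.

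Detected in 5 of 10 wells, Ager, the RAGE gene of type 1 cells, stood at 0.854 FPKM in well 3, 16.9 in well 5, 141 in well 6, 2335 in well 9, 0 in well 10, 3.35 in well 12, 0.265 in well 14, 0 in well 18, 5.57 in well 19 and 0 in well 30. Well 9 was highest, and 16 of 18 other wells held it, with a median of 1596 FPKM, for a log2 ratio of -4.36. The myeloid-like mean came mostly from well 9, and over all settings the log2 ratio ran from -9.01 to -1.10. In the lineage+ wells Ager was detected in 0 of 50. Aqp5, a water channel of type 1 cells, was detected in well 6 alone, at 444 FPKM. Pdpn, also made by fibroblasts, stood at 180.4 FPKM in well 5 and 287 in well 10. Tppp3 stood at 703 FPKM in well 12 and 139.8 in well 3, without Foxj1, the ciliated cell factor, which was listed at 0 in all 10. Foxj1 was detected in 0 of 18 other wells too. Tppp3 was detected in 10 of 18 other wells and 20 of 50 lineage+ wells. Epcam, the protein of the sort gate, was detected in wells 6, 9, 18 and 30 at 8.73, 38.9, 1.2 and 2.8 FPKM, and in 5 of 18 other wells up to 1042.

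The mix of epithelial transcripts was not the same from well to well. The ratio of Sftpc to Scgb1a1 ran from 0.000156 in well 12 to 15.2 in well 19, with a median of 0.0441, and the ratio of Ager to Scgb1a1 from 0 in wells 10, 18 and 30 to 18.1 in well 9. In the 16 other wells with Scgb1a1, the ratio of Sftpc to Scgb1a1 ran from 0 to 4976. The highest epithelial gene of each myeloid-like well was Lyz1 in wells 6, 14, 18 and 30, Scgb1a1 in wells 5 and 12, Ager in well 9, Pdpn in well 10, Sftpc in well 19 and Tppp3 in well 3. The shares of free RNA, of another cell and of RNA made by the caught cell in these values were not tested.

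**Figure D5:**
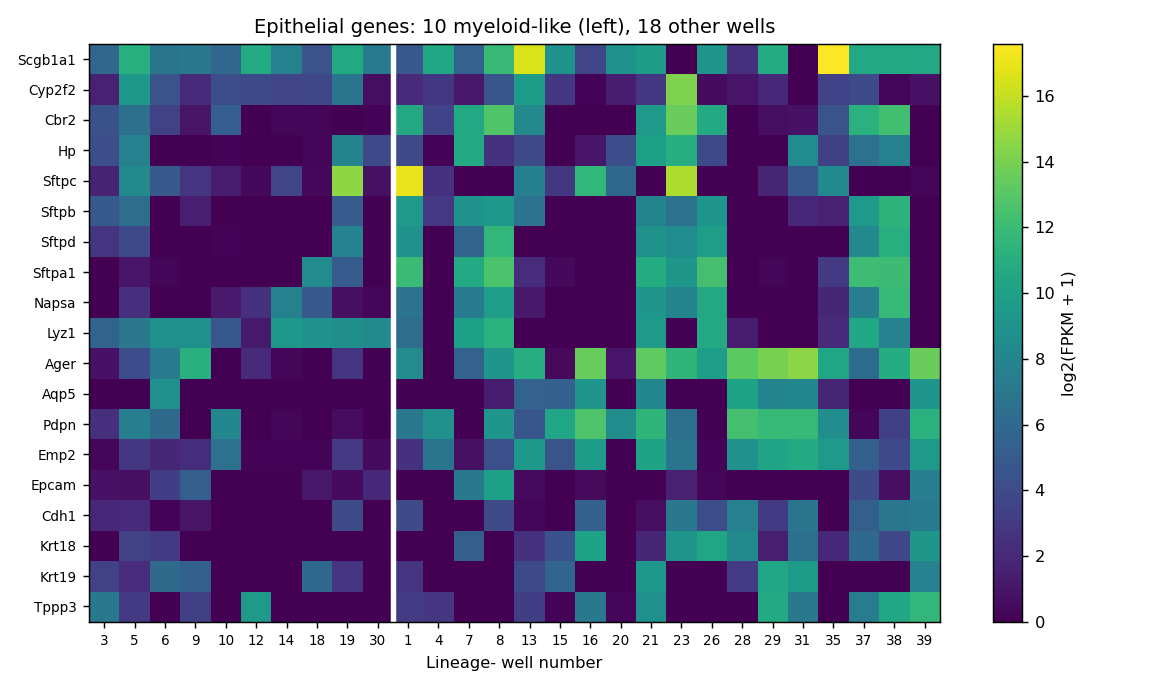
Levels of 19 epithelial genes (rows) in the 10 myeloid-like wells, left of the white line, and the 18 other wells, right of it, as log2(FPKM + 1) by colour. On the left, Scgb1a1 and Lyz1 run through all 10 wells, and single bright cells mark Sftpc in well 19 (24892 FPKM), Ager in well 9 (2335) and Aqp5 in well 6 (444).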

How the data were processed

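Values of 39 lineage- wells, and for background of 54 lineage+ wells, were read from 1 deposited table per group. The authors deposited FPKM per gene and well; the unit is inferred, since no label or header names it. Builds given in the submitters' processing notes are mm9 and GRCm38, and the tools are RSEM 1.2.20 and Bowtie 1.1.1, with no step named for any of them. Of 23846 rows, 1830 held no value and 731 shared a symbol with another row, which left 21285 genes. Older symbols were matched through RefSeq synonyms. Depth per well was estimated from the steps between low values and is approximate.

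The level of a side was its mean FPKM, the log2 ratio was taken after adding 1 FPKM, and 2-fold was the limit for higher or lower. With 1 sample and wells chosen by the readout, no test, p-value or standard error was made. A share of 0 is given the limit of 3 counts of the wells. The 2 pairs of lineage+ wells with nearly identical profiles (r above 0.9) were counted once. Named genes are the markers given with the rule, the 12 highest and 12 lowest ratios among genes detected in 50% of the wells of the higher side, up to 4 and 2 members per list highest in each side, members listed at 0 in all 10 myeloid-like wells, and genes detected in all 10 and no other well. Further list members and genes picked by their pattern over wells were named after their values were seen. Some list members counted in the text are not reported here by name. The members and the 32 lists were chosen with earlier results of these data known. The calculation was tested on simulated data, with large changes planted in widely detected genes of resampled lineage+ wells. That test did not cover genes detected in few wells or sides chosen by the readout. Scripts ran in Python 3.11.15 with pandas 2.3.3, numpy 2.4.6, matplotlib 3.10.9 and scipy 1.17.1.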

Additional observations from a re-analysis of the deposited data

Results flagged for a closer look

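Wells on neither side also held leukocyte genes. At most 3 of the 24 measured pan-leukocyte genes were detected in any of the 18 other wells. Among the wells with 1 rule gene, well 24 held 13, well 2 held 11, well 27 held 7, well 25 held 6 and well 34 held 5. Among the wells under 1000 genes, well 36 held 12, well 11 held 11 and well 33 held 10, with Tyrobp at 3378, 1174 and 5738 FPKM. Wells 36, 11 and 33 also held 8, 5 and 5 of the 13 measured neutrophil genes. Their summed FPKM was 112127, 10239 and 13124, against at most 428 in the myeloid-like wells. Well 24 also held 19 of 23 alveolar macrophage genes, where the highest other well held 5. There Chi3l3 stood at 1689, Ear2 at 491, Mrc1 at 106 and Laptm5 at 226 FPKM, with Tyrobp listed at 0, which is what kept it off the myeloid-like side. Well 2 held Tyrobp at 448 FPKM beside Ager at 14547.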

How the results depend on the processing

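No paired analysis was possible because no result comes from a test and all wells of both sides belong to 1 labelled group. With FPKM in place of counts, low genes cannot be told from missed ones, and depth is approximate. The counts of higher and lower genes, 527 and 303, became 1114 and 701 in wells with at least 2000 genes (4 myeloid-like and 5 other wells, in place of 10 and 18), 1137 and 1054 for genes detected in 25% of wells, and 2610 and 3606 with no filter on detection; looser filters let in more genes by construction. Leaving out each myeloid-like well in turn gave 421 to 480 higher and 307 to 340 lower genes. Both main counts lie outside these ranges. With 9 wells left, the 50% filter asks for a larger share of wells than with 10, which by construction can only remove genes. The count of higher genes fell and that of lower genes rose, and the cause of the rise was not tested. With each well left out, the median ratio of alveolar macrophage genes was 5.46 to 5.65, of MHC class II 2.46 to 3.80 and of alveolar type 2 genes -5.49 to -4.39.

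The alveolar macrophage median of 5.50 moved to 8.79 with 0.1 FPKM added, 3.22 with 10, 3.89 for mean log values and 3.94 for medians. The MHC class II median of 3.65 moved to 2.12 in wells with at least 2000 genes, 1.48 for mean log values, 0 for medians, 2.97 with a common total and 2.59 without the highest well of each side. The alveolar type 2 median of -4.53 moved, in the same order of settings, to -5.52, -2.50, -0.23 for medians and -5.20 without the highest wells, to -5.37 and -3.15 with 0.1 and 10 FPKM added, to -5.45 with the rule at 10 FPKM and to -5.65 in wells of at least 2000000 reads, a setting chosen after seeing the data, as was leaving out wells 5, 10 and 30. The share of myeloid-like wells with Sftpc, 70.0%, was 100% at any value above 0 and 20.0% at 100 FPKM.

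Signs turned in wells with at least 2000 genes for the medians of lysosome (-0.72), cell cycle (-0.40), immediate early (-0.27) and MHC class I genes (-0.022) and for Cst3 (-0.035), Cyp2f2 (4.53) and Sec14l3 (0.042); with the rule at any value above 0 for the interstitial macrophage and monocyte median (0.015); for mean log values in Cd74 (-0.15), H2-Aa (-0.090) and Cyp2f2 (1.06); for medians in Cd74 (-2.39), H2-Aa (-0.31), Sftpc (0.11) and Cyp2f2 (1.83); and without the debris well in Cyp2f2 (0.74). The MHC class I median also turned without wells 5, 10 and 30 (-0.38) and without well 5, 14 or 30 alone (down to -0.11). Over all settings the median stayed above 0 for pan-leukocyte genes (2.42 to 7.58), the NADPH oxidase (1.84 to 6.85) and myeloid transcription factors (0.81 to 3.79); comparing medians took it to 0 for 13 of 27 lists, among them phagocyte receptors, T and NK cell, lipid and general epithelial genes, and to 0.14 for cytokines and chemokines, 0.12 for ITAM signalling and -0.047 for club genes. Left out alone, well 30 took the T and NK median from 5.21 to 3.03, well 19 the lipid median from 2.01 to 1.00 and well 10 the fibroblast median from -0.69 to -2.50. The causes were not tested. Of 858 alternative values for 33 named ratios, 695 stayed within 1.5-fold, 152 moved further and 11 turned.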
